A study of Homo sapiens with 9 samples.

Results

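A set of 10 genes that encode interleukin-1 cytokines, their receptor and the inflammasome machinery were examined in HMEC-1 cells treated with trimethylamine N-oxide (TMAO), a metabolite derived from gut microbes. They were the cytokines IL1A, IL1B and IL18, the receptor IL1R1, the sensors NLRP1 and NLRP3, the adaptor PYCARD, the caspases CASP1 and CASP4, and TXNIP. All 10 were found by symbol among 29740 genes in the count table, and all 10 passed the expression filter that left 14740 genes for testing. HMEC-1 is an established line of human dermal microvascular endothelial cells. Total RNA was sequenced in 9 libraries, with 3 from controls (CTRL), 3 from cells treated with 50 µM TMAO for 24H and 3 from cells treated with 50 µM TMAO for 48H. All groups came from the same line, and per the study's methods the cells were kept in medium with little serum during treatment. The labels give no harvest time for the controls, and the study describes its 24H and 48H controls as pooled, without saying whether each library holds one time or both. Time in culture and time with TMAO therefore cannot be told apart in any of the 3 contrasts. The study's methods describe experiments as independent repeats, but the labels do not tie libraries to experiments, so p-values measure the spread between these libraries.

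An inflammasome is a protein complex that forms in the cytosol when a sensor such as NLRP3 or NLRP1 detects damage or infection. The sensor recruits the adaptor PYCARD (also called ASC), which gathers and activates CASP1, and CASP1 then cuts the precursors of IL-1β and IL-18 and the pore-forming protein gasdermin D. CASP4 senses bacterial lipopolysaccharide inside the cell and also cuts gasdermin D. TXNIP binds and inhibits thioredoxin, and is known to bind NLRP3 under oxidative stress. TMAO has been described elsewhere as acting on endothelial cells through TXNIP and NLRP3, which was the reason to ask which of these genes HMEC-1 expressed and which of them differed with treatment. Transcript levels do not report cleavage or secretion of these proteins, which were not measured here.

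The 3 sets of sequences below are printed beside the values that follow, and no link from the TXNIP promoter to its counts was tested. The first is a promoter window of TXNIP, a gene that rose after 48H of TMAO treatment, at chr1:145996530-145996829 on the minus strand of GRCh38.p14 (RefSeq). Capitals mark the carbohydrate response element in the spelling it has in this promoter, which is CACGAG, 5 bases and CACGAG again. They also mark both CCAAT boxes (CCAAT or its reverse complement).
TXNIP promoter: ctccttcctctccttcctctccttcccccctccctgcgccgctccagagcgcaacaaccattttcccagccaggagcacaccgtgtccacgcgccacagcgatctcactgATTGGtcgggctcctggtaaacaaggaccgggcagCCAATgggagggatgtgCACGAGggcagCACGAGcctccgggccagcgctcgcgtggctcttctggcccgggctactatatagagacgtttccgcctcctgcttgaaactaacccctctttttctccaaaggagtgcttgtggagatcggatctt
The carbohydrate response element starts at position -88 from the transcription start, and the CCAAT boxes start at positions -140 and -105, so the motifs did not overlap. Neither motif was found in the other RefSeq window of TXNIP, at chr1:145995695-145995994. On either strand, CACGAG with 5 bases before a further CACGAG was found in 2 of 35116 RefSeq promoter windows of the same length (0.0057%), whereas CCAAT was found in 34.6%. The letters searched are the spelling in the TXNIP window, itself among the windows searched, so this share does not measure how rare other spellings are. The carbohydrate response element is the known binding site of the glucose-responsive factors MLXIP (MondoA) and MLX. RefSeq promoter windows were matched for 7 of the 10 genes (12 windows). None was available for CASP1, IL18 or NLRP1, whose promoters were therefore not searched. None of the 12 held the interferon-response letters (GAAA, 2 bases, GAAA; 3.57% of all windows) or the NF-κB letters (GGGA, 1 base, TTTCC; 0.558%), and TTCNNNGAA (7.66%) was found in 1 window each of IL1B and IL1R1. A match in these letters is a description of the window and not evidence of binding.

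The second set compares the first 270 coding bases of CASP1 with those of CARD16, an inhibitor of CASP1 that arose as a partial copy of it, because reads from the copied stretch can be assigned to either gene. Capitals mark the bases that differ, from the longest protein-coding transcript of each gene in GENCODE 29.
CASP1 coding start: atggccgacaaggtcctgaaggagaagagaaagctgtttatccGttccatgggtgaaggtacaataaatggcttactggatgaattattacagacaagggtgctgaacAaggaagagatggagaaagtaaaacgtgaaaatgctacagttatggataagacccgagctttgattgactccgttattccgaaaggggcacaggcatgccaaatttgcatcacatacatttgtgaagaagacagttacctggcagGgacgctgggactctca
CARD16 coding start: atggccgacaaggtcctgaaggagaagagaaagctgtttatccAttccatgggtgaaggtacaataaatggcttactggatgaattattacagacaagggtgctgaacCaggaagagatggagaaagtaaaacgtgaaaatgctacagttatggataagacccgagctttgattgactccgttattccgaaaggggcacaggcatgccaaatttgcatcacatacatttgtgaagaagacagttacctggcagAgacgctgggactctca
Counted from 1 at the first base of the start codon, with the CASP1 base first, the 3 differences were G44A, A109C and G254A, an identity of 98.9%. Over the whole CASP1 coding sequence of 1212 bases, 45 of 1113 windows of 100 bases (4.04%) were also present without a mismatch in a CARD16 transcript. Seen from CARD16, whose coding sequence holds 591 bases, 9.15% of such windows were shared. The study's reads were longer than these windows before trimming, and sharing at the full read length was not counted. The third set is the primer pair the study used for IL1B in RT-qPCR, shown because it marks the stretch of IL1B that its other assay read.
IL1B forward primer: ctaaacagatgaagtgctcc
IL1B reverse primer: ggtcattctcctggaagg
In the IL1B transcript of 1631 bases (IL1B-201, GENCODE 29) the forward primer covered bases 297 to 316, across the junction of exons 3 and 4. The reverse primer covered bases 462 to 479 in exon 4, which gives a product of 183 bases inside the coding sequence (bases 212 to 1018).

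Libraries held 25205756 to 36927373 estimated counts. Ribosomal RNA took 31.5% of the counts in TMAO 24H replicate 1 and 1.64% to 7.46% in the other 8 libraries. Endothelial markers were all detected (12 of 12 tested, among them CDH5, PECAM1 and TIE1), with a summed normalised count of 77747 to 86401 in controls, 78213 to 82150 at 24H and 68395 to 73908 at 48H. Single markers went both ways: MMRN1 was at 282 to 323 in controls and 388 to 414 at 48H, and VWF at 3063 to 3592 in controls, 2342 to 2630 at 24H and 3219 to 3980 at 48H. Of 12 leukocyte markers only CD14 passed the filter, and 8, PTPRC and SPI1 among them, stayed at 3 counts or fewer in every library. The leukocyte sum ranged from 39.1 to 55.5 over all 9 libraries, with overlapping groups. Of 5 fibroblast markers, 3 passed the filter while DCN and LUM stayed at 3 counts or fewer, and the sum, most of it COL1A1, was 19928 to 22854 in controls, 19782 to 21312 at 24H and 13233 to 14508 at 48H. Keratinocyte markers were present in every library (4 of 6 tested, with KRT1 and DSG1 at 3 counts or fewer), and their sum was 1612 to 3128 in 8 libraries and 403 in TMAO 48H replicate 3. In bulk libraries fewer cells of a type and less RNA per cell cannot be told apart. The part of any of these levels in the results below was not tested, except where a value is given.

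The 10 genes covered a wide range of expression (FPKM, estimated counts per kilobase of the longest protein-coding GENCODE 29 transcript, scaled to the library's effective size). TXNIP was the highest in controls at 34.8 FPKM (32.7 to 36.9 over the 3 libraries), above 85.8% of the 13241 tested genes with a known length. CASP4 followed at 15.3 FPKM (14.9 to 15.7) and NLRP1 at 13.4 FPKM (13.0 to 13.9). The adaptor PYCARD stood at 6.26 FPKM (4.76 to 7.20) and CASP1 at 3.24 FPKM (3.03 to 3.43). IL1R1, the signalling receptor for both IL-1 cytokines, was at 1.13 FPKM (1.06 to 1.26) and IL1B at 0.800 FPKM (0.722 to 0.853). The lowest were IL18 at 0.294 FPKM (0.200 to 0.375), IL1A at 0.190 FPKM (0.121 to 0.327) and NLRP3 at 0.169 FPKM (0.148 to 0.184), and only 4.64% of tested genes were lower than NLRP3. In controls, neighbours in this order did not overlap between libraries down to IL18, while IL18 overlapped IL1A, and IL1A overlapped NLRP3. The first 8 places were the same in all 3 groups. NLRP3 and IL1A exchanged the last 2 places after treatment, with overlapping libraries at 24H and at 48H. In raw terms, NLRP3 was seen with 20 to 38 estimated counts per library, IL1B with 32 to 51, IL1A with 6 to 21 and IL18 with 2 to 17.

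**Figure D1:**
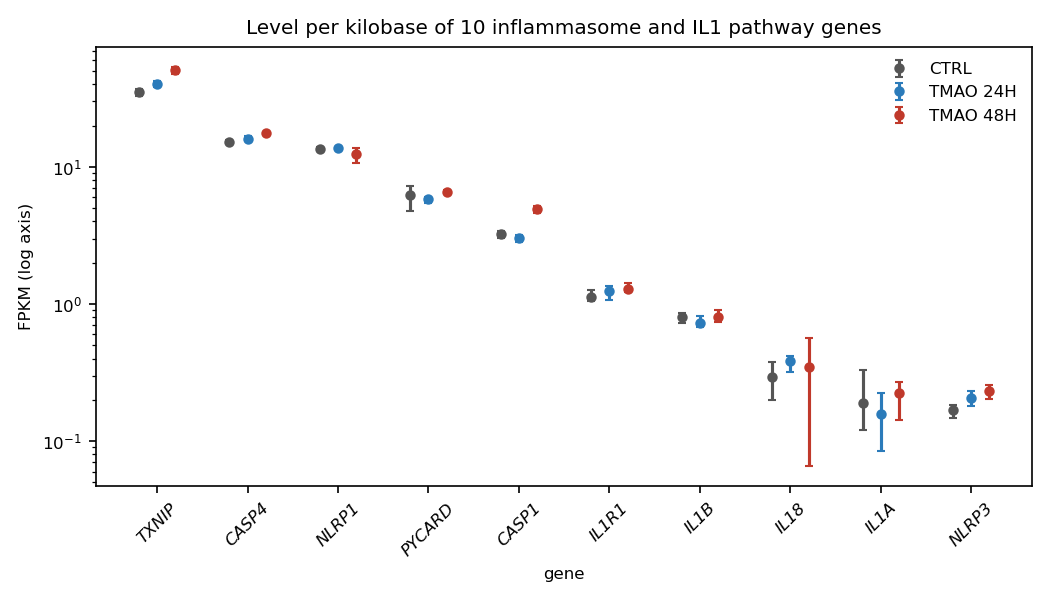
Level of each gene in FPKM (log axis) for CTRL, TMAO 24H and TMAO 48H; points are means of 3 libraries and bars run from the lowest to the highest library. Levels span from TXNIP at 34.8 FPKM in controls to NLRP3 at 0.169 FPKM, and the order changes only among the lowest genes.

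At 24H none of the 10 genes passed the test (adjusted p below 0.05 at any fold, edgeR quasi-likelihood test with Benjamini-Hochberg adjustment over all 14740 genes), beside 0.095% of all genes tested. DESeq2 called 0 of the 7 for which it gave an adjusted p (it gave none for IL1A, IL18 and NLRP3), and TXNIP alone had an unadjusted p below 0.05 in edgeR. None reached 1.4-fold with an adjusted p below 0.05 either, beside 0.0475% of all genes. At 48H, TXNIP, CASP1 and CASP4 rose against controls, 3 of 10 beside 10.4% of all genes. TXNIP and CASP1 rose by at least 1.4-fold, 2 of 10 beside 1.8% of all genes. Between 48H and 24H, CASP1 and TXNIP passed (2 of 10, beside 7.53% of all genes), and CASP1 alone by at least 1.4-fold (1 of 10, beside 1.71%). The median log2 fold change of the 10 genes was 0.05 at 24H, 0.23 at 48H and 0.17 for 48H against 24H, against medians of -0.00042, 0.0040 and 0.0040 over all genes tested. At 48H, 9 of the 10 had a positive log2 fold change and NLRP1 a negative one. The values of IL1B, IL18 and PYCARD changed sign when single libraries were left out, so no joint rise can be read from that count. The TMAO 24H and TMAO 48H groups were compared with the same controls.

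**Figure D2:**
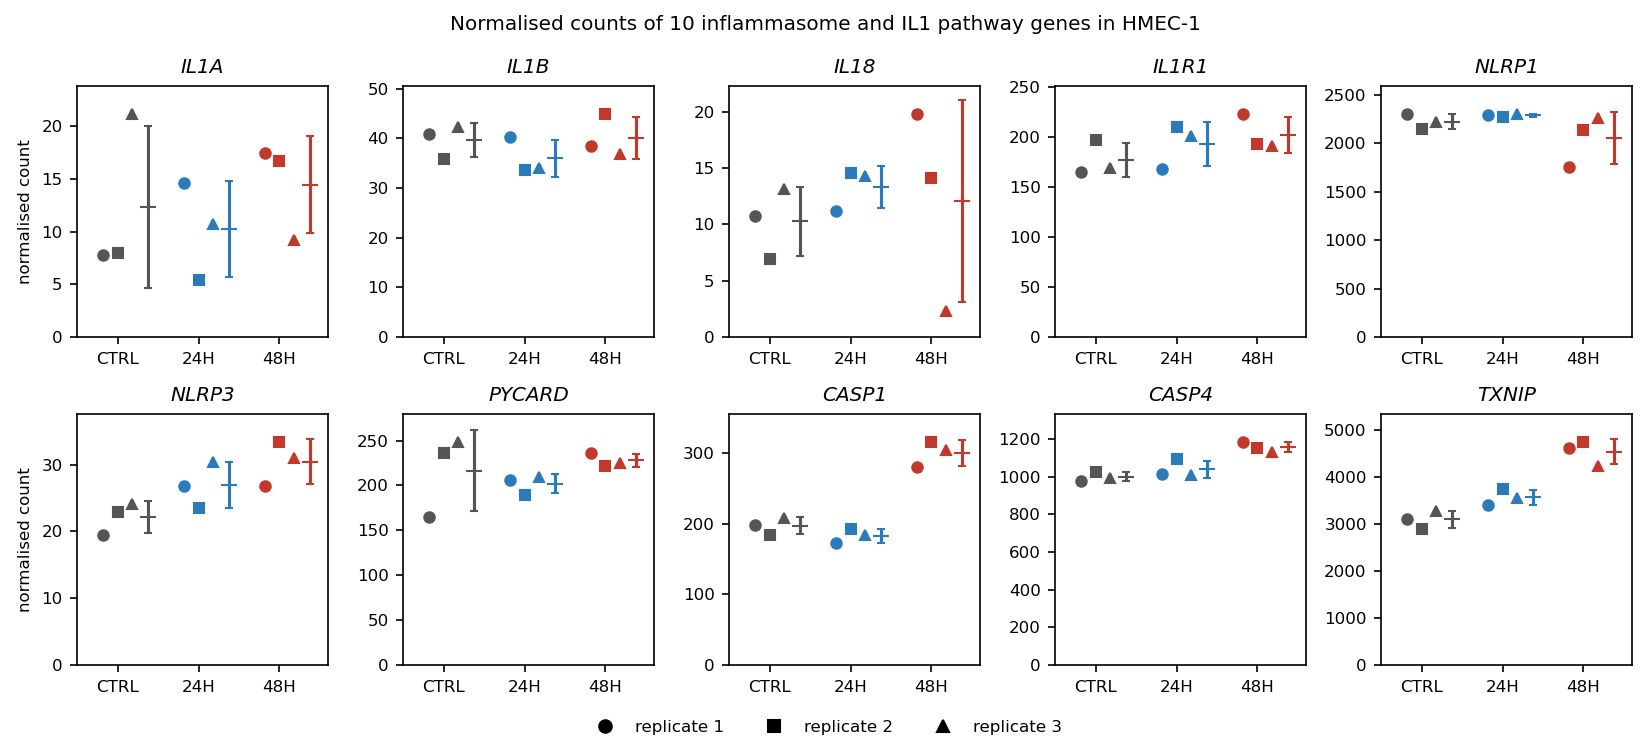
Normalised counts of the 10 genes in each library (symbols mark the replicate number) for CTRL, TMAO 24H and TMAO 48H, with the mean and SD of 3 libraries beside the points. For TXNIP, CASP1, CASP4 and NLRP3 every 48H library lies above every control library, but NLRP3 did not pass the test (edgeR adjusted p = 0.250). The share of all genes that separate in this way was not counted.

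Among the ligands, none passed the test. IL1B, the inflammasome-processed cytokine most studied in vascular inflammation, had normalised counts (estimated counts scaled to one common library size) of 40.9, 35.8 and 42.3 in controls, 40.3, 33.6 and 34.0 at 24H, and 38.4, 44.9 and 36.8 at 48H. All 3 groups overlapped. Its fold change was 0.904 at 24H (95% CI 0.672 to 1.22, edgeR adjusted p = 0.943) and 1.01 at 48H (95% CI 0.753 to 1.36, adjusted p = 0.970), so a rise of 1.4-fold lay outside both intervals, while the interval at 24H extended below 1/1.4 of the control level. IL1A, the cytokine that acts without inflammasome cleavage, had 7.79, 7.96 and 21.2 in controls, 14.6, 5.44 and 10.7 at 24H, and 17.5, 16.7 and 9.21 at 48H. The third control library held the highest value of all 9, and the groups overlapped. The interval of its fold at 48H ran from 0.574 to 2.45 (edgeR adjusted p = 0.798), so a change of 1.4-fold in either direction was not resolved at this depth.

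IL18, the second cytokine cut by CASP1, had 10.7, 6.97 and 13.1 normalised counts in controls, 11.2, 14.5 and 14.3 at 24H, and 19.8, 14.1 and 2.30 at 48H. The last value, from TMAO 48H replicate 3, was the lowest of all libraries and rested on 2 estimated counts, against 16 and 17 in the other 48H libraries. That library was also the one with the low keratinocyte sum: KRT5 had a normalised count of 125 there and 763 to 1630 elsewhere, and KRT14 67.9 against 552 to 1067. The other tested keratinocyte markers fell less or not at all. KRT10 had 178 there and 214 to 393 elsewhere, and TP63 had 31.07, inside its range of 27.26 to 50.05 elsewhere. Over the 9 libraries log2 of the IL18 normalised count plus 1 and log2 of the keratinocyte sum had a Pearson correlation of 0.854, and 0.184 without TMAO 48H replicate 3, so the relation rested on that library. Without that library the same correlation was 0.788 for IL1A and 0.812 for PYCARD (0.428 and 0.126 over all 9), and -0.597 to 0.411 for the other 7 genes. The log2 fold change of IL18 at 48H was 0.24 with all libraries (edgeR adjusted p = 0.824), 0.70 without TMAO 48H replicate 3 (adjusted p = 0.299) and -0.24 without TMAO 48H replicate 1 (adjusted p = 0.852). No direction can therefore be given for IL18.

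**Figure D3:**
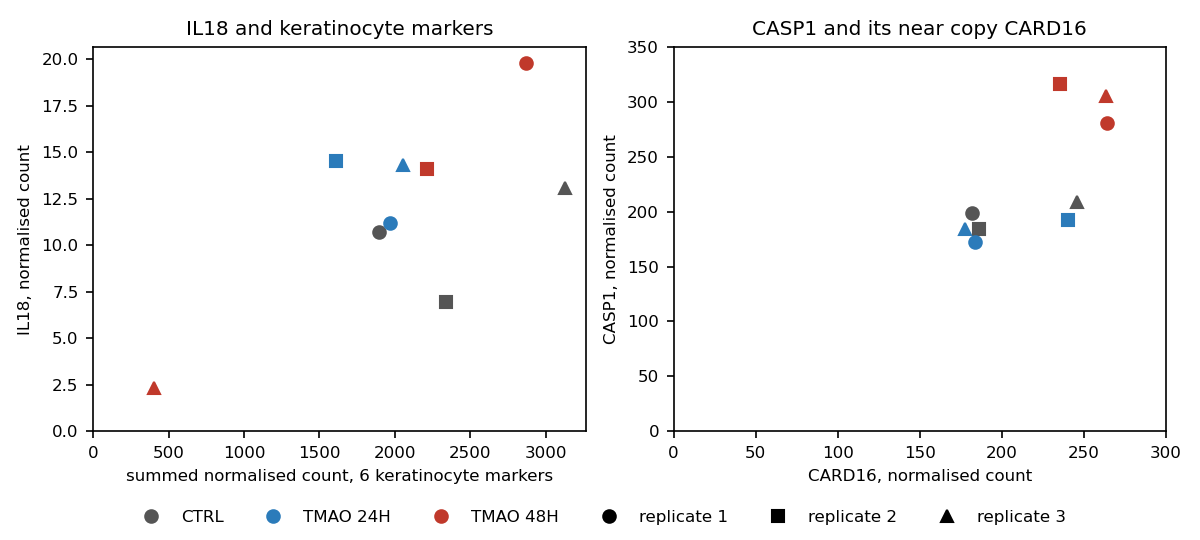
Left, normalised count of IL18 against the summed normalised count of 6 keratinocyte markers; right, normalised count of CASP1 against CARD16; each point is 1 of 9 libraries, coloured by group. TMAO 48H replicate 3 stands apart on the left at a marker sum of 403 and an IL18 count of 2.30, and on the right the 48H libraries lie above all others for CASP1.

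The receptor IL1R1 had normalised counts of 165, 197 and 169 in controls, 168, 210 and 201 at 24H, and 223, 194 and 191 at 48H. The groups overlapped, since the second control library lay above 2 of the 48H libraries. Its fold change was 1.09 at 24H (95% CI 0.911 to 1.31, edgeR adjusted p = 0.901) and 1.14 at 48H (95% CI 0.955 to 1.37, adjusted p = 0.339).

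The sensor NLRP3 had 19.5, 22.9 and 24.2 normalised counts in controls, 26.9, 23.6 and 30.4 at 24H, and 26.8, 33.5 and 31.1 at 48H. Every 48H library lay above every control library, but the lowest 48H library (26.8) lay close to the highest control (24.2). The fold change was 1.22 at 24H (95% CI 0.848 to 1.74, edgeR adjusted p = 0.883) and 1.38 at 48H (95% CI 0.960 to 1.97, adjusted p = 0.250), so NLRP3 did not pass at either time. Over 8 alternative analyses of the 48H contrast its log2 fold change stayed between 0.45 and 0.46 and its adjusted p between 0.215 and 0.384. NLRP1, a sensor held inactive by the peptidase DPP9, was more abundant than NLRP3. Its normalised counts were 2305, 2152 and 2218 in controls, 2290, 2276 and 2303 at 24H, and 1752, 2136 and 2268 at 48H. The 48H libraries spread more widely than the others, and TMAO 48H replicate 1 was the lowest. NLRP1 had a fold change of 0.922 at 48H against controls (95% CI 0.827 to 1.03, edgeR adjusted p = 0.337) and 0.896 against 24H (95% CI 0.804 to 0.999, adjusted p = 0.222), and it passed in neither contrast.

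PYCARD, the adaptor that links sensors to CASP1, had 165, 236 and 249 normalised counts in controls, 206, 190 and 209 at 24H, and 236, 222 and 226 at 48H. The first control library was the lowest of all 9, and the treated groups lay within the range of the controls. Its fold change at 48H was 1.05 (95% CI 0.861 to 1.29, edgeR adjusted p = 0.778). Without the first control library the log2 fold change turned from 0.075 to -0.089 (adjusted p = 0.666).

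CASP1, the protease at the centre of the canonical inflammasome, had 199, 184 and 209 normalised counts in controls, 173, 192 and 184 at 24H, and 281, 316 and 305 at 48H. Every 48H library lay above every control and every 24H library, while the controls and the 24H libraries overlapped. CASP1 rose 1.52-fold at 48H against controls (95% CI 1.32 to 1.76, log2 fold change 0.61 ± 0.0961 SE, n = 3 per group, edgeR adjusted p = 0.00182). Against 24H it rose 1.64-fold (95% CI 1.42 to 1.90, edgeR adjusted p = 0.000422). At 24H its fold against controls was 0.929 (95% CI 0.804 to 1.07, adjusted p = 0.897). Its near copy CARD16, chosen for this comparison after its values were seen, had 182, 186 and 246 in controls, 184, 240 and 177 at 24H, and 264, 235 and 264 at 48H. The highest control and the lowest 48H library overlapped for CARD16, whose log2 fold change at 48H was 0.31 (edgeR adjusted p = 0.184). CASP1 took 45.9% to 52.2% of the summed estimated counts of both genes in controls, 44.4% to 50.9% at 24H and 51.4% to 57.4% at 48H. With CASP1, CARD16 and CARD17 added together, the log2 fold change was 0.47 at 48H against controls (edgeR adjusted p = 0.00836) and 0.53 against 24H (adjusted p = 0.00371). How reads were split between CASP1 and CARD16, and its part in the CASP1 value, was not tested.

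CASP4, the sensor of intracellular lipopolysaccharide, had 980, 1027 and 996 normalised counts in controls, 1015, 1093 and 1011 at 24H, and 1187, 1152 and 1135 at 48H. All 48H libraries lay above all other libraries, though by little. It rose 1.16-fold at 48H (95% CI 1.07 to 1.25, log2 fold change 0.21 ± 0.0507 SE, edgeR adjusted p = 0.0197). The call was lost in 3 of 6 fits that each left out 1 library, with an adjusted p of 0.0706 without CTRL replicate 1, 0.0508 without CTRL replicate 3 and 0.0632 without TMAO 48H replicate 2. Against 24H the fold was 1.11 (edgeR adjusted p = 0.0843), and no other gene's exons overlapped those of CASP1, CASP4 or TXNIP in GENCODE 29.

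TXNIP, the thioredoxin-binding protein, had the smallest adjusted p of the 10 genes at 48H. Its normalised counts were 3110, 2907 and 3285 in controls, 3412, 3740 and 3555 at 24H, and 4622, 4758 and 4246 at 48H. The 3 groups did not overlap, and the 24H libraries lay between the controls and the 48H libraries. TXNIP rose 1.46-fold at 48H against controls (95% CI 1.35 to 1.59, log2 fold change 0.55 ± 0.0558 SE, n = 3 per group, edgeR adjusted p = 7.51e-05) and 1.27-fold against 24H (95% CI 1.17 to 1.38, adjusted p = 0.00166). At 24H its fold was 1.15 (95% CI 1.06 to 1.25), with an unadjusted p of 0.00288 that became 0.421 after adjustment in edgeR and 0.103 in DESeq2. The call at 48H held in 6 of 6 fits that left out 1 library, with log2 fold changes of 0.51 to 0.60. It also held for CASP1 in 6 of 6 such fits, with log2 fold changes of 0.56 to 0.66.

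**Figure D4:**
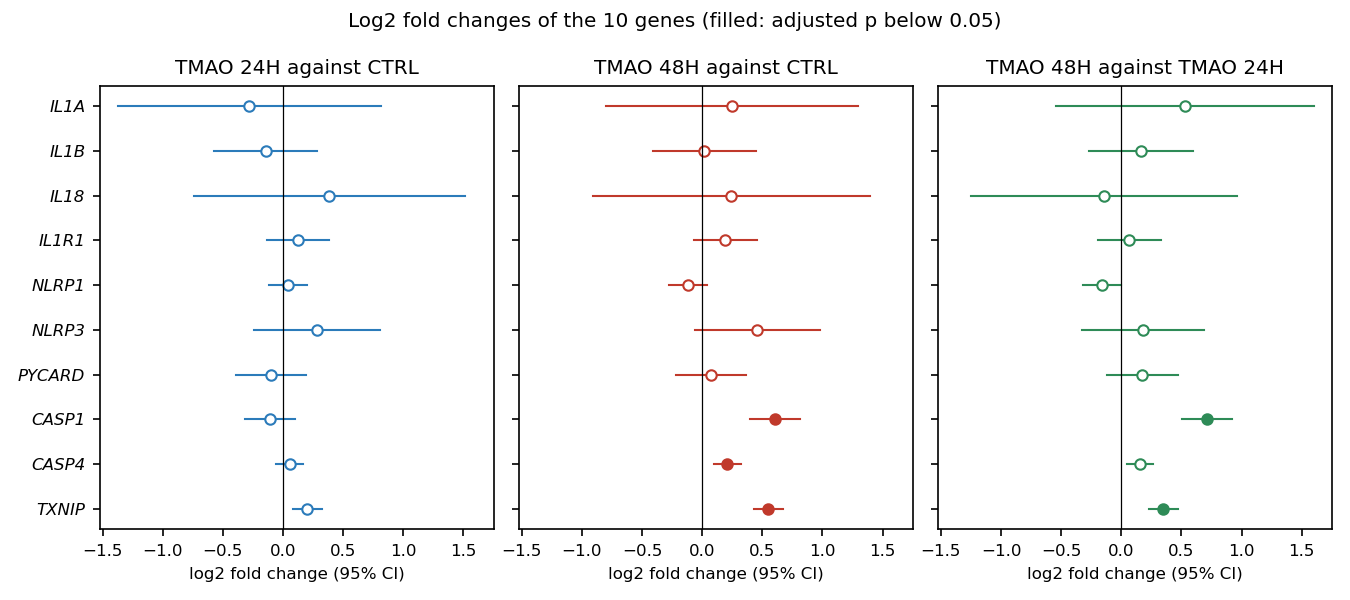
Log2 fold changes of the 10 genes with 95% confidence intervals in TMAO 24H against CTRL, TMAO 48H against CTRL and TMAO 48H against TMAO 24H; filled points have an edgeR adjusted p below 0.05. CASP1, CASP4 and TXNIP are filled at 48H, CASP1 and TXNIP in 48H against 24H, and none at 24H; the intervals of IL1A and IL18 are the widest.

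The genes whose log2 level followed each risen gene most closely over the 9 libraries were listed as a description, among tested genes with a mean normalised count of at least 50. For CASP1 these were TRIM22 (Pearson r = 0.993), HERC5 (r = 0.988) and MYEF2 (r = 0.987), of which TRIM22 and HERC5 are known as interferon-induced genes. Their log2 fold changes at 48H were 0.48, 1.24 and 0.32. For TXNIP they were ZNF24 (r = 0.989), CYLD (r = 0.985) and KITLG (r = 0.983), with log2 fold changes of 0.19, 0.28 and 0.50. For CASP4 they were CEBPG (r = 0.981), ANK1 (r = 0.967) and ZBTB6 (r = 0.964). The 9 points share 3 groups, so genes that differ between groups in the same way correlate whatever their role.

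Around these genes, 93 further genes of the IL-1 and inflammasome pathways and of the thioredoxin system were listed in the count table, of which 52 passed the filter and 33 stayed at 3 counts or fewer in every library. At 24H 0 of 52 passed in edgeR and DESeq2 called 0 of those given an adjusted p, with 1 higher and 3 lower at an unadjusted p below 0.05. At 48H 4 rose and 1 fell, beside the 10.4% of all genes tested, and between 48H and 24H 5 rose and 0 fell, beside 7.53%. The count at 48H was 1 without TMAO 48H replicate 2, 2 without CTRL replicate 2, and 3 without CTRL replicate 3 or TMAO 48H replicate 1. The count for 48H against 24H was 2 or 3 whichever library was left out. The median log2 fold change of the 52 genes was 0.04 at 48H, against 0.0040 over all genes.

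Of the other ligands and antagonists of the family only IL18BP, the soluble inhibitor of IL-18, passed the filter (1 of 9). It had a fold of 0.791 at 48H (95% CI 0.648 to 0.966, edgeR adjusted p = 0.127), and its exons overlap those of NUMA1 on the opposite strand. The receptor antagonist IL1RN had 0 to 6 counts, IL33 1 to 12 and IL37 0 to 5, and IL36A and IL1F10 had 0 in every library, where a count of 0 allows up to 3 counts. Among 9 further receptors 7 stayed at 3 counts or fewer, among them the decoy receptor IL1R2, the IL-33 receptor IL1RL1 and both chains of the IL-18 receptor, IL18R1 and IL18RAP. The remaining members were IL1RAP, the co-receptor that IL1R1 needs to signal, and SIGIRR, a receptor known to dampen IL-1 signalling. IL1RAP had 738, 841 and 728 normalised counts in controls, 636, 741 and 704 at 24H, and 948, 987 and 984 at 48H, with every 48H library above all others. It rose 1.26-fold at 48H against controls (95% CI 1.14 to 1.41, edgeR adjusted p = 0.00959) and by a log2 fold change of 0.49 against 24H (95% CI of the fold 1.26 to 1.56, adjusted p = 0.000826). SIGIRR had 747, 784 and 844 in controls, 767, 792 and 788 at 24H, and 669, 673 and 715 at 48H, and fell to 0.866 of the control level at 48H (95% CI 0.791 to 0.948, edgeR adjusted p = 0.0443). Behind the receptor, all 15 signalling genes from MYD88 and IRAK1 to TRAF6 and MAP3K7 were expressed and 0 passed in any of the 3 contrasts. The shares of all genes tested were 0.095% at 24H, 10.4% at 48H and 7.53% for 48H against 24H, so few would be called among 15. In edgeR, 1 was higher and 1 lower at an unadjusted p below 0.05 at 48H, with a median log2 fold change of -0.0034 there.

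Of 24 other sensors of the NLR and PYHIN families, 7 passed the filter and 14 stayed at 3 counts or fewer, including AIM2, MEFV (pyrin) and most NLRP genes. NLRC4 had 1 to 10 counts per library. NOD2, a sensor of bacterial peptidoglycan, had 14.6, 15.9 and 13.1 normalised counts in controls, 11.2, 10.9 and 4.48 at 24H, and 25.6, 19.4 and 23.0 at 48H. The 3 groups did not overlap, with 24H lowest. NOD2 rose 2.56-fold between 24H and 48H (95% CI 1.47 to 4.44, edgeR adjusted p = 0.0408), on 5 to 22 estimated counts per library, and an antisense gene overlaps its exons. Against controls it did not pass at 24H (fold 0.604, adjusted p = 0.746) or at 48H (fold 1.54, adjusted p = 0.273).

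Of 14 inflammasome regulators 10 passed the filter, and 2 of these 10 rose at 48H, beside 10.4% of all genes tested that passed in either direction. P2RX7, the ATP-gated channel whose opening triggers NLRP3, had 63.3, 57.7 and 53.4 in controls, 52.7, 59.9 and 38.5 at 24H, and 81.5, 89.8 and 94.4 at 48H. All 48H libraries lay above all others. P2RX7 rose 1.52-fold at 48H (95% CI 1.16 to 2.00) with an edgeR adjusted p of 0.049998, at the threshold, and 1.76-fold against 24H (95% CI 1.34 to 2.31, adjusted p = 0.0153). DPP8, a peptidase that restrains NLRP1 and CARD8, had 2185 to 2416 in controls, 2376 to 2472 at 24H and 2562 to 2664 at 48H, a rise of 1.14-fold at 48H (95% CI 1.07 to 1.22, edgeR adjusted p = 0.0180). DPP9, the peptidase that holds NLRP1 inactive, went the other way without passing. Its fold was 0.915 at 48H (95% CI 0.845 to 0.990, edgeR adjusted p = 0.142) and 0.893 against 24H (adjusted p = 0.0809). The kinase NEK7, which NLRP3 needs to assemble, was abundant (58.3 FPKM in controls) and was named for that role after its values were seen. It had a fold of 1.05 at 48H (edgeR adjusted p = 0.360).

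Of 9 other caspases and pore proteins 6 passed the filter. NINJ1, which ruptures the membrane of dying cells, had 615 to 642 normalised counts in controls, 588 to 624 at 24H and 675 to 731 at 48H. It rose 1.16-fold against 24H (95% CI 1.06 to 1.27, edgeR adjusted p = 0.0422), with an adjusted p of 0.0988 at 48H against controls. GSDMD, the gasdermin cut by CASP1 and CASP4 and named for that role after its values were seen, was expressed at 39.1 FPKM in controls. Its fold at 48H was 0.916 (95% CI 0.858 to 0.979, edgeR adjusted p = 0.0888), with every 48H library below every control. CASP5 had 0 to 3 counts.

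Of 13 partners of TXNIP 11 passed the filter, and TXNRD1, the cytosolic thioredoxin reductase, was the only one to pass the test. That was 1 of 11 at 48H, beside 10.4% of all genes, and 1 of 11 for 48H against 24H, beside 7.53%. It had 14934, 15247 and 13964 normalised counts in controls, 14175, 13743 and 13985 at 24H, and 16769, 16749 and 16413 at 48H. All 48H libraries lay above the rest, a rise of 1.13-fold against controls (95% CI 1.06 to 1.21, edgeR adjusted p = 0.0200) and 1.19-fold against 24H (95% CI 1.12 to 1.27, adjusted p = 0.00269). Thioredoxin itself, TXN, had a fold of 1.03 at 48H (95% CI 0.886 to 1.20, adjusted p = 0.833). The factors that bind the carbohydrate response element in the printed TXNIP promoter, named for that role after their values were seen, had folds at 48H of 0.974 for MLXIP (95% CI 0.871 to 1.09, edgeR adjusted p = 0.802) and 1.06 for MLX (95% CI 0.982 to 1.14, adjusted p = 0.327). ARRDC4, an arrestin of the same family as TXNIP, had 4 to 18 estimated counts per library and a fold of 1.28 at 48H with an interval of 0.581 to 2.81 (edgeR adjusted p = 0.728).

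**Figure D5:**
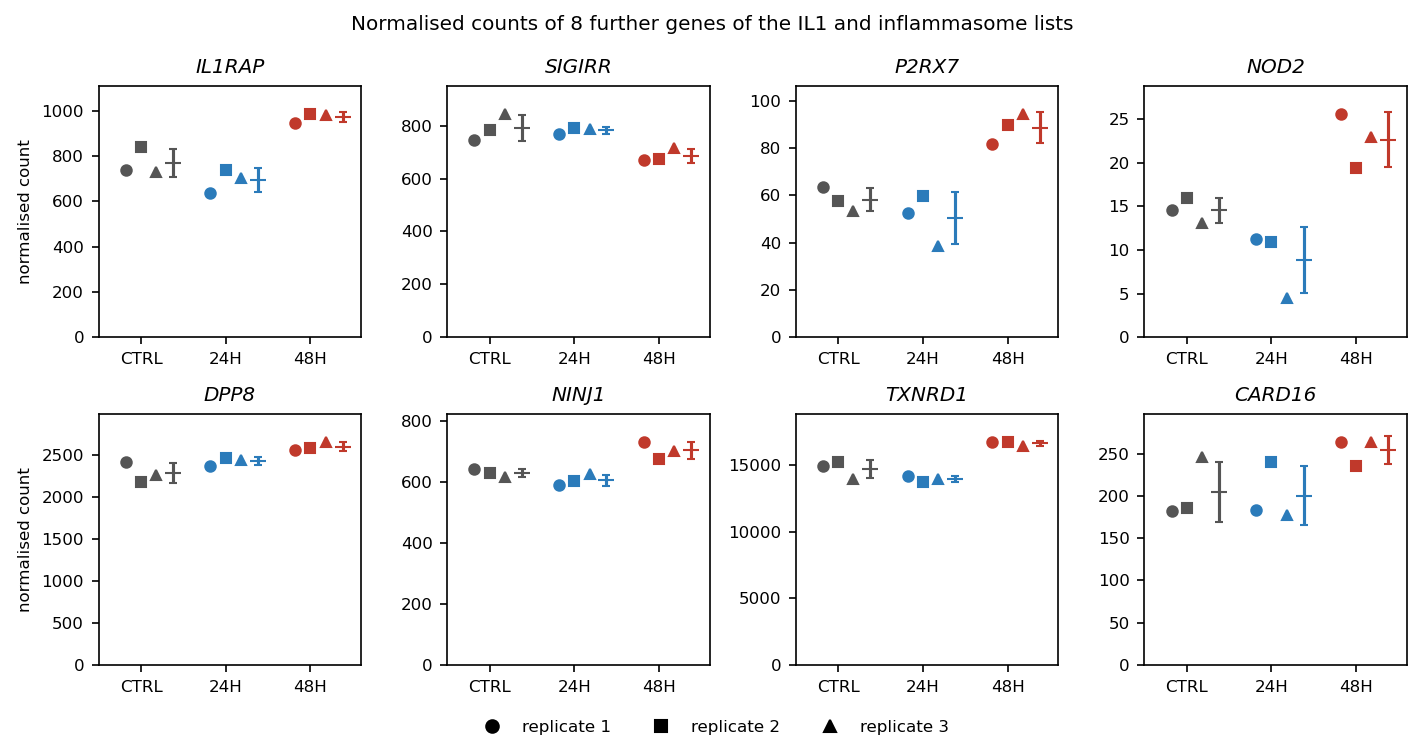
Normalised counts of IL1RAP, SIGIRR, P2RX7, NOD2, DPP8, NINJ1, TXNRD1 and CARD16 in each library (symbols mark the replicate number), with the mean and SD of 3 libraries beside the points. Every gene but SIGIRR and CARD16 has all 48H libraries above all control libraries, while SIGIRR has them below and CARD16 overlaps. All but CARD16 are shown because they passed in a contrast, and the share of all genes that separate in this way was not counted.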

How the data were processed

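RNA-seq of 9 HMEC-1 libraries was analysed from the deposited table of estimated counts per gene. Per the study's methods the authors made it from paired reads with the nf-core RNAseq pipeline version 3.6 (Trim Galore is named in the submitters' processing notes). The genome build, annotation and strand setting are not given in the sources used here. The deposited estimated counts are not whole and are not normalised, and they were rounded before testing.

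Libraries were grouped by their labels. Library sizes were scaled by TMM, genes were filtered with filterByExpr, and all 9 libraries were fitted together with the edgeR 4.0.16 quasi-likelihood test in R 4.3.3, adjusted by Benjamini-Hochberg over 14740 genes, with a threshold of 0.05. The test was tried on simulated data. The study's methods use DESeq2 with a 1.4-fold threshold. DESeq2 (version 1.42.0) at any fold and the 1.4-fold threshold in edgeR were run as separate alternatives. Other settings were RLE size factors, testing with no filter or with a minimum of 10 counts per library, fitting the 2 groups alone, edgeR's previous quasi-likelihood method, a block for the replicate number, removal of 6 ribosomal RNA genes, a GC correction (GC content known for 13241 genes, 89.8%), CASP1 with CARD16 and CARD17 summed, and leaving out each library.

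The 10 genes and the pathway lists were chosen with earlier results of these data known. Named were the 10 genes, listed genes with an adjusted p below 0.05 in any contrast, listed genes at 3 counts or fewer, and the 3 genes most correlated with each risen gene. Other listed genes named with values (CARD16, IL18BP, IL1RN, IL33, IL37, NLRC4, DPP9, NEK7, GSDMD, TXN, MLX, MLXIP, ARRDC4) or by name alone (MYD88, IRAK1, TRAF6, MAP3K7) were chosen for their role after their values were seen. GSDME was listed under its older symbol, DFNA5. In GENCODE 29, antisense genes overlap exons of IL1R1, PYCARD and NOD2 and a same-strand lincRNA those of IL1RAP, and reads of such pairs cannot be told apart without a known strand setting. The smallest p that exact permutation of 3 and 3 libraries allows is 0.1, so none was run. Intervals cover the spread between libraries, and depth was 25205756 to 36927373 counts per library.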

Additional observations from a re-analysis of the deposited data

Results flagged for a closer look

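Levels differed between the 48H and the 24H libraries for 7 genes, tested directly between these libraries in edgeR. No control enters this contrast, so time in culture and time with TMAO cannot be told apart in it. CASP1 differed by a log2 fold change of 0.71 (SE 0.0963, adjusted p = 0.000422) and TXNIP by 0.35 (SE 0.0557, adjusted p = 0.00166). Among the further pathway genes, the log2 fold change was 0.49 for IL1RAP (adjusted p = 0.000826), 0.25 for TXNRD1 (adjusted p = 0.00269), 0.82 for P2RX7 (adjusted p = 0.0153), 1.35 for NOD2 (adjusted p = 0.0408) and 0.21 for NINJ1 (adjusted p = 0.0422). All 7 were higher at 48H, and for each of them every 48H library lay above every 24H library. The 7 were picked by an adjusted p below 0.05 in this same contrast, so that separation is no further support.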

How the results depend on the processing

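Of the comparisons recomputed under each alternative, 500 kept their direction and their side of the threshold or stayed within the stated limits, 20 counts moved by more than 1.5 times, 11 values changed sign and 3 lost their call. The 3 lost calls were those of CASP4 at 48H described above. The number of the 10 genes passing at 48H was 2 to 3 and that for 48H against 24H 2 when single libraries were left out, and the latter became 1 with a minimum of 1.4-fold. Of the further pathway genes, 5 passed at 48H, against 3 without the filter, 2 with the 2 groups alone, 1 with the 1.4-fold minimum and 3 with the GC correction, and 1 to 4 without single libraries. For 48H against 24H, 5 passed, against 3 without the filter, 3 with the 2 groups alone, 3 with the 1.4-fold minimum, and 2 to 3 without single libraries. The cause was not tested. The GC correction turned the log2 fold change of IL1B at 48H to -0.014. Without single libraries, log2 fold changes crossed 0 for PYCARD at 48H (-0.089 to 0.18) and 24H (-0.27 to 0.014), IL1B at 48H (-0.077 to 0.075), IL1A at 24H (-0.59 to 0.35), IL1R1 for 48H against 24H (-0.029 to 0.13), and IL18 at 48H (-0.24 to 0.70) and for 48H against 24H (-0.62 to 0.32).

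The groups share replicate numbers. Deviations from the group means correlated at -0.12 to 0.091 for same-numbered libraries and at -0.0996 to 0.159 for differently numbered ones. These values showed no pairing by number, but they cannot exclude that libraries shared an experiment. With the replicate number as a block, 3 of the 10 genes passed at 48H and 2 in 48H against 24H, and 1 and 3 of the further pathway genes. IL1A, IL18 and NLRP3 rest on 2 to 38 estimated counts per library.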
